A study of Mus musculus with 25 samples.

Results

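Jejunal mRNA of early-weaned mouse pups given lacto-N-neotetraose (LNnT) was compared with that of early-weaned pups given no oligosaccharide. The comparison took the 5 libraries labelled LNnT1 to LNnT5 (EW+LNnT) and the 5 labelled Weaned1 to Weaned5 (EW), 10 of the 25 libraries in the study, and it covered every gene with enough counts to be tested (22131 of 57132). Choosing the libraries used no measured value.

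The study assigned pups at postnatal day 14 to 5 groups of 5 libraries. These were EW+LNnT, EW+HMOs (early weaning with 2'-fucosyllactose and LNnT together), EW+2'-FL (early weaning with 2'-fucosyllactose), EW (weaned at day 15 with no supplement) and control (left to suckle and taken at day 21). All groups but the control were weaned early, so EW carries the weaning that EW+LNnT carries. Strain, the amount of oligosaccharide and the age of the early-weaned pups when sampled are not given in the sources used here. Whether 1 library stands for 1 animal is not labelled either, so the spread behind each p-value is that of these samples and may be partly technical. In both groups compared some libraries hold Y-linked transcripts and some do not, so neither group is made only of repeats of 1 animal. The tissue is bulk jejunum, in which fewer cells of a type and less RNA per cell cannot be told apart.

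LNnT and 2'-fucosyllactose are soluble oligosaccharides of human milk. LNnT is a neutral chain of galactose and N-acetylglucosamine built on lactose and carries no fucose, whereas 2'-fucosyllactose is lactose with a fucose attached. Both largely escape digestion in the small intestine and feed gut bacteria. Jejunal epithelium makes cholesterol as well as absorbing it, and the transcription factor SREBP2 switches on the synthesis genes when membrane sterol is low. Gut epithelium also keeps a circadian clock, a loop in which CLOCK and BMAL1 drive PER and CRY proteins that then repress them.

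Several libraries stood apart before any comparison. On the first principal component, which held 22.4% of the variance, LNnT1 lay at 172, LNnT2 at 146 and FL1 (an EW+2'-FL library) at 119. Weaned1 lay at 57.4 and every other library at or under 11.3. LNnT3 was not apart on that component, but its heat-shock genes summed to 22204 CPM (counts scaled to library size, with TMM factors), against 1985 to 2528 CPM in the other EW+LNnT libraries and 1607 to 2153 CPM in EW. Digestive enzyme transcripts of the pancreas took 1.19% of counts in LNnT1, 0.368% in LNnT2 and 0.28% in Weaned1, and at most 0.00204% in the other 7 libraries compared. Transcripts of Y-linked genes were present in 2 of 5 EW+LNnT libraries (LNnT4 and LNnT5) and in 4 of 5 EW libraries (all but Weaned3). LNnT1, LNnT2 and LNnT3 are therefore both the libraries that stood apart and the ones without Y-linked transcripts, and within EW+LNnT these features cannot be told apart. Library totals were 58.7 to 84.6 M counts in EW+LNnT and 68.7 to 89.6 M in EW, and Spearman correlations within the groups were 0.924 to 0.982 in EW+LNnT and 0.957 to 0.983 in EW. All 10 genes of the intestinal epithelium list were measured, with sums of 27359 to 58453 CPM in EW+LNnT and 29742 to 74393 CPM in EW.

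The 2 groups differed in 38 genes, 26 of them higher and 12 lower in EW+LNnT, in a fit of all 25 libraries. That number depended on the fit: it was 1 with these 10 libraries alone, 5 once the level of Y-linked transcripts was a covariate, and 406 in DESeq2, and all 38 kept their sign in each. These fits reuse the values behind the calls, so a kept sign was favoured in advance. Genes of sterol synthesis and its control (Fdft1, Mvd, Insig1) were among those that fell. Those that rose included the clock-linked factors Nfil3 and Per2, the splicing kinase Clk4, the cyclins Ccnl1 and Ccnl2, the deacetylase Sirt1 and the zinc exporter Slc30a1. A gene was called when its adjusted p from edgeR's quasi-likelihood test, over all genes tested, was under 0.05. That took in 0.172% of the genes tested, 0.117% higher and 0.0542% lower, and 20 of the 38 changed by 2-fold or more. Before adjustment 2521 genes had a p under 0.05. The median log2 change of all genes was -0.01. Of the 38, 3 have only a predicted, clone or accession name.

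The 5 EW+LNnT libraries lay wholly above the 5 EW libraries for 23 of the 26 genes that rose, where 1.49% of all genes tested did so, and wholly below them for 11 of the 12 that fell, where 1.23% did. Being called and not overlapping come from the same values, so these counts describe the calls. Among the rises the groups overlapped in Ripk4, Tsc22d2 and Flrt3. The highest library for the 26 genes was LNnT3 in 18, LNnT1 in 7 and LNnT2 in 1. No share over all genes tested stands beside these numbers, so they describe the called genes alone. LNnT4 and LNnT5, the libraries that stood apart in none of these ways, were both above every EW library for 24 of the 26, where 11.2% of all genes tested were, and both below for 11 of the 12, where 8.64% were. The 23 rises and 11 falls without overlap meet this by definition, so these counts too only describe the calls.

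**Figure D1:**
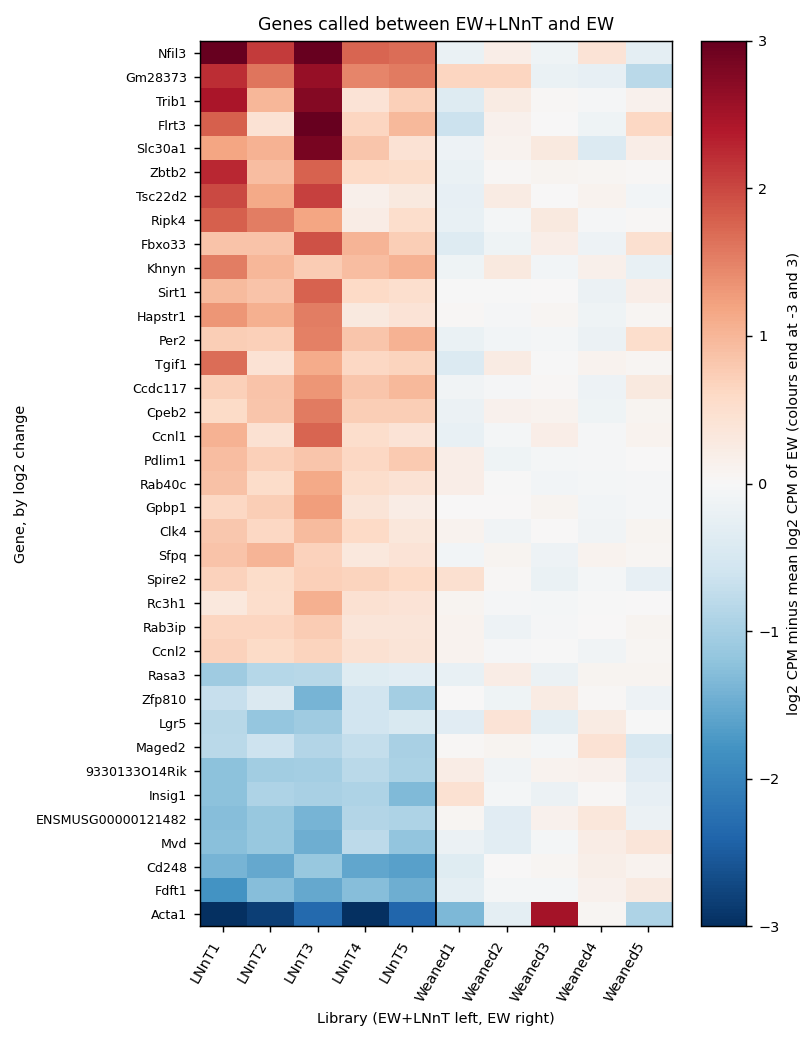
Log2 CPM of 37 called genes (rows, ordered by log2 change) in each EW+LNnT library (left) and EW library (right), minus the mean log2 CPM of EW, with colours ending at -3 and 3. LNnT1 and LNnT3 hold the strongest colours in the genes that rose, and the genes that fell are low in all 5 EW+LNnT libraries.

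Of the 12 falls, 4 were members of the lists of cholesterol synthesis or SREBP2 control. Fdft1 encodes squalene synthase, the enzyme that commits the pathway to sterols. It stood at 9.40, 13.5, 11.2, 13.5 and 12.0 CPM in LNnT1 to LNnT5, against 26.6, 31.5, 31.7, 35.9 and 39.7 CPM in Weaned1 to Weaned5. The groups did not overlap. LNnT1 was the lowest EW+LNnT library, and the other 4 lay close together. Fdft1 fell 2.77-fold (log2 change -1.47 ± 0.22, estimate ± standard error; edgeR adjusted p = 0.00402).

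Mvd encodes mevalonate diphosphate decarboxylase, an earlier step. Its level was 5.63 ± 0.99 CPM in EW+LNnT and 12.6 ± 2.53 CPM in EW (mean ± SD, n = 5 each), with ranges of 4.5 to 7.21 CPM in EW+LNnT and 9.91 to 16.0 CPM in EW. It fell by 1.17 ± 0.21 on the log2 scale (edgeR adjusted p = 0.0167).

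Insig1 encodes the membrane protein that holds SREBP2 back in the endoplasmic reticulum and is itself switched on by it. It stood at 34.8, 42.9, 41.6, 42.7 and 32.5 CPM in LNnT1 to LNnT5, against 112, 78.4, 71.9, 83.1 and 68.4 CPM in Weaned1 to Weaned5. All EW libraries were above all EW+LNnT libraries, and Weaned1 was the highest. The log2 change was -1.09 ± 0.23 (edgeR adjusted p = 0.0447). It is the least secure of the sterol calls: it was lost when any single library but LNnT4 was left out of the groups compared, with the same sign each time.

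The promoters of sterol genes are shown because SREBP2 acts there with the CCAAT-binding factor NF-Y. Each is 250 bases before and 50 after the gene's start, printed 5' to 3' on the gene's strand, from RefSeq on GRCm38.p6, which is not the build of the counts. Mvd (chr8:122443373-122443672, minus strand) and Insig1 (chr5:28071162-28071461, plus strand) were called, and Hmgcs1 (chr13:119690101-119690400, plus strand), the gene of hydroxymethylglutaryl-CoA synthase, was not. Capitals mark matches on either strand to CCAAT, to CACGTG (an E-box) and to TCACNCCA (a sterol regulatory element).
Mvd: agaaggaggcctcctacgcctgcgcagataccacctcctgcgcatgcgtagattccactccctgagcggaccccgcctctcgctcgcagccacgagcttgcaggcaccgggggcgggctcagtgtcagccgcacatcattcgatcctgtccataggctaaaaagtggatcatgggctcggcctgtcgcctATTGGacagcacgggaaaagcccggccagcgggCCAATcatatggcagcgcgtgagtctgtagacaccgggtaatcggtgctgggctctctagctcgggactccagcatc
Insig1: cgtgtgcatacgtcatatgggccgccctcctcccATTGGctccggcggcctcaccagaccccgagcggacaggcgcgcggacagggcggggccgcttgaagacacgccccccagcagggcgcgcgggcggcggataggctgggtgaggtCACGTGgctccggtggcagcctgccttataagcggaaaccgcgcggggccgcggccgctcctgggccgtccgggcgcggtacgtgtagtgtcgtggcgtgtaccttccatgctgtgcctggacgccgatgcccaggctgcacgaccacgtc
Hmgcs1: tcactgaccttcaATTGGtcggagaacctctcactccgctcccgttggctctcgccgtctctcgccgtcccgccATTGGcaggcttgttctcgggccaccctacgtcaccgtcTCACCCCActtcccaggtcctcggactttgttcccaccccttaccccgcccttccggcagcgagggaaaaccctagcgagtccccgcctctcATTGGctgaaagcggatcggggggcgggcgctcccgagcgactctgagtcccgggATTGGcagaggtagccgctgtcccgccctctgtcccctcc
In these windows Mvd held 2 CCAAT matches, Insig1 held 1 CCAAT and 1 CACGTG, and Hmgcs1 held 4 CCAAT and 1 TCACNCCA, none of which overlap. Among the 16 of 21 cholesterol synthesis genes with a promoter entry, 15 held CCAAT and 2 held TCACNCCA. Of 32851 mouse promoters of this length, 37.4% held CCAAT, 4.36% TCACNCCA and 7.15% CACGTG. These shares are per promoter entry, whereas a gene counted if any of its entries matched. The motifs were chosen after matches had been seen, and a match is not a binding site.

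Across the whole cholesterol synthesis list of 21 genes, 2 fell (Fdft1 and Mvd) and none rose. The median log2 change was -0.67, against -0.01 for all genes, and 18 members had a negative change. In 8 of the 21 every EW+LNnT library lay below every EW library, where 1.23% of all genes did. The list was chosen with earlier results of these data known, so these counts describe it and are no separate support. Members outside the calls with sizeable estimates were Sqle, squalene epoxidase (-1.61 ± 0.36; edgeR adjusted p = 0.065), Hmgcs1 (-1.30 ± 0.29; 0.065) and Fdps, farnesyl diphosphate synthase (-1.20 ± 0.27; 0.065). Hmgcs1 stood at 21.1, 41.3, 73.1, 59.4 and 49.4 CPM in LNnT1 to LNnT5, against 87.7, 122, 123, 118 and 149 CPM in Weaned1 to Weaned5, with no overlap. LNnT1 was the lowest library for Hmgcs1, Sqle (4.57 CPM) and Idi1 (isopentenyl diphosphate isomerase, 5.38 CPM). Without LNnT1, LNnT2 and FL1 the list's median was -0.46 and 7 members were called, in a fit that called 1.43% of all genes.

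The list of SREBP2 control and sterol uptake had 2 of 14 members lower, Insig1 among them, none higher and a median of -0.02. No member of the lists for sterol export (9 genes, median 0.09) or fatty acid synthesis (15 genes, median -0.37) was called. In the fatty acid list Scd1, stearoyl-CoA desaturase, ranged from 0.77 to 6.62 CPM in EW+LNnT and from 3.09 to 79.2 CPM in EW (-3.45 ± 1.03; edgeR adjusted p = 0.16). The adipocyte list had a median change of -2.22, with 7 of 8 tested members negative and none called. Its defining transcript Adipoq was at 0 in 3 EW+LNnT libraries and reached 6.02 CPM in Weaned5, the library in which Scd1 was highest. The list summed to 124 to 269 CPM in EW+LNnT (median 210) and 150 to 278 CPM in EW (median 188). The median sum was not lower in EW+LNnT although 7 of 8 members had negative changes, and the list's part in the change of Scd1 was not tested.

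**Figure D2:**
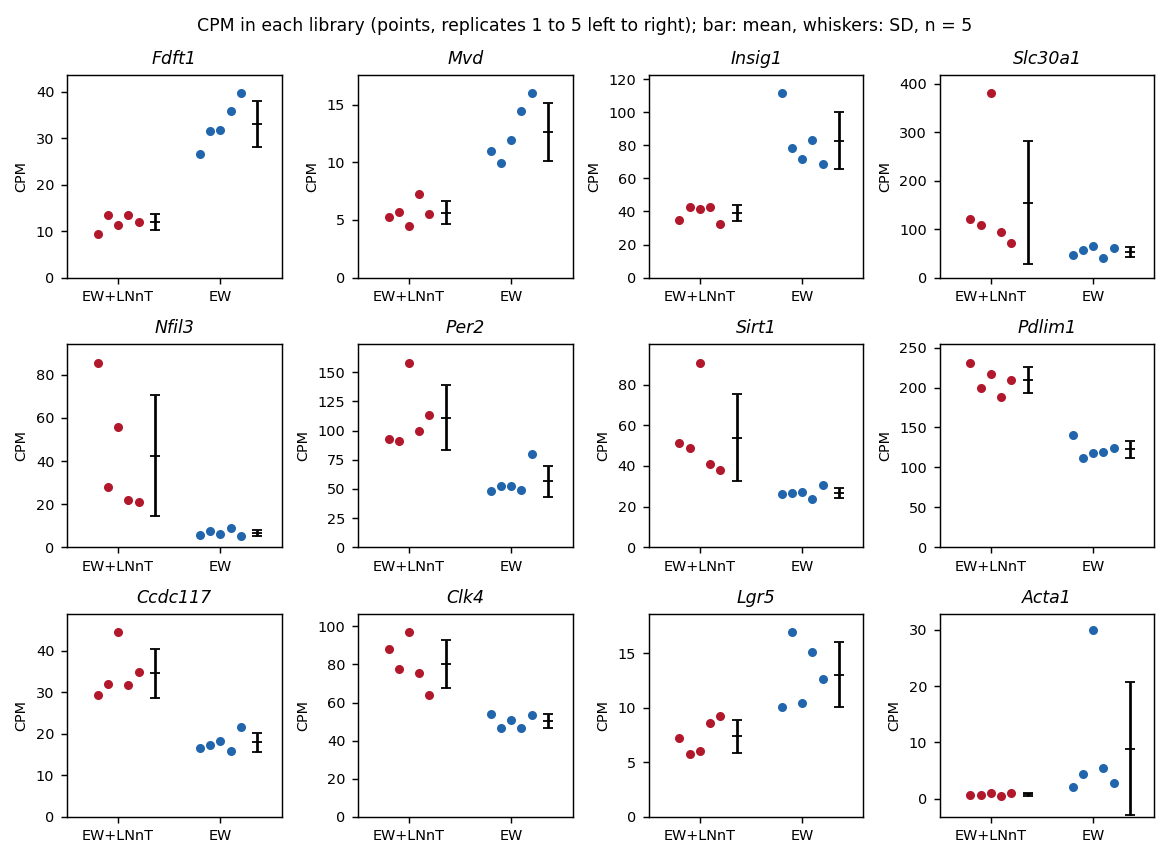
CPM in each library for 12 called genes, EW+LNnT (red) left of EW (blue), replicates 1 to 5 from left to right, with the mean (short bar) and SD (whiskers, n = 5). Fdft1, Mvd and Insig1 separate the groups fully, LNnT3 is far above the rest in Slc30a1, and the EW mean of Acta1 is set by Weaned3.

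Clock-linked genes were among the rises. Nfil3 encodes a leucine-zipper repressor that antagonises the clock output activators DBP, TEF and HLF, and it is needed for innate lymphoid cells. It stood at 85.7, 27.8, 55.9, 21.8 and 21.0 CPM in LNnT1 to LNnT5, against 5.63, 7.50, 5.97, 8.71 and 5.30 CPM in Weaned1 to Weaned5. Every EW+LNnT library exceeded every EW library by more than the whole spread of EW, and LNnT1 and LNnT3 were highest. It had the largest called rise, 6.40-fold (log2 change 2.68 ± 0.41; edgeR adjusted p = 0.00561), and the estimate was 1.68 without LNnT1, LNnT2 and LNnT3.

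Per2, a repressor of the core loop, stood at 92.8, 91.1, 158, 99.4 and 114 CPM in LNnT1 to LNnT5, against 48.6, 52.5, 52.9, 48.7 and 80.1 CPM in Weaned1 to Weaned5. LNnT3 was highest in EW+LNnT and Weaned5 in EW, without overlap. It rose 1.96-fold (log2 change 0.97 ± 0.19; edgeR adjusted p = 0.0272), and the estimate was 0.90 without LNnT1, LNnT2 and LNnT3. Sirt1 encodes an NAD-dependent deacetylase that acts on clock and metabolic regulators. It had 54.0 ± 21.4 CPM in EW+LNnT and 26.8 ± 2.49 CPM in EW (SD, n = 5 each), with 37.9 to 90.9 CPM in EW+LNnT and 23.6 to 30.6 CPM in EW (log2 change 1.01 ± 0.18; edgeR adjusted p = 0.0165).

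Of the 15 core clock genes 1 rose (Per2) and none fell. The median log2 change was 0.87, with all 15 estimates positive where 49.3% of all genes were. In 5 of them every EW+LNnT library lay above every EW library, where 1.49% of all genes did. This list too was chosen with earlier results of these data known, so the counts are no separate support. Without LNnT1, LNnT2 and FL1 the median was 0.35 and 3 members were called, in a fit that called 1.43% of all genes. FL1, which was given no LNnT, also had high clock genes. The list summed to 1935 CPM in FL1, 2503 CPM in LNnT1 and 1979 CPM in LNnT2. The sums were 932 to 1206 CPM in LNnT3 to LNnT5 and 734 to 825 CPM in EW. Members differed in which libraries carried them. Cry2, another repressor, stood at 311, 211, 29.6, 35.9 and 37.8 CPM in LNnT1 to LNnT5, against 25.7 to 38.1 CPM in EW, so that only LNnT1 and LNnT2 were above the EW range. Nr1d1, the clock repressor REV-ERB alpha, was also above the EW range in those libraries alone, with 434 and 304 CPM in LNnT1 and LNnT2, 9.30 to 37.4 CPM in LNnT3 to LNnT5, and 21.0 to 82.1 CPM in EW. Bmal1, the activator of the loop, had 54.6, 40.8 and 32.8 CPM in LNnT3 to LNnT5 and 13.6 CPM in LNnT1, against 13.9 to 24.9 CPM in EW, and did not pass (0.89 ± 0.26; 0.15). Among 8 clock output factors, Nfil3 alone was called, with a median of 0.36.

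Several other rises were in genes that act on RNA. They form none of the lists used here and are put side by side after their values were seen. Clk4 encodes a kinase of splicing factors. It stood at 88.3, 77.4, 97.0, 75.3 and 63.8 CPM in LNnT1 to LNnT5, against 53.9, 46.6, 50.6, 46.5 and 53.3 CPM in Weaned1 to Weaned5, with no overlap (log2 change 0.68 ± 0.13; edgeR adjusted p = 0.0183). The cyclins L1 and L2, which take part in splicing with cyclin-dependent kinases, rose by 0.93 ± 0.18 (Ccnl1) and 0.56 ± 0.10 (Ccnl2; 237 to 294 CPM in EW+LNnT and 170 to 195 CPM in EW). Sfpq, a splicing factor of paraspeckles, rose by 0.68 ± 0.14, and Cpeb2, which controls translation through the poly(A) tail, by 0.93 ± 0.19. Rc3h1, the RNA-binding repressor Roquin-1 that degrades inflammatory mRNAs, rose by 0.58 ± 0.12, and Khnyn, a cofactor of the antiviral protein ZAP, by 1.06 ± 0.22. These 6 genes had edgeR adjusted p values between 0.0165 (Ccnl2) and 0.0447 (Khnyn).

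The promoters of Ccnl1 (chr3:65958200-65958499, minus strand) and Clk4 (chr11:51262864-51263163, plus strand), again from RefSeq on GRCm38.p6, are shown because each holds 1 full cAMP response element, TGACGTCA, in capitals.
Ccnl1: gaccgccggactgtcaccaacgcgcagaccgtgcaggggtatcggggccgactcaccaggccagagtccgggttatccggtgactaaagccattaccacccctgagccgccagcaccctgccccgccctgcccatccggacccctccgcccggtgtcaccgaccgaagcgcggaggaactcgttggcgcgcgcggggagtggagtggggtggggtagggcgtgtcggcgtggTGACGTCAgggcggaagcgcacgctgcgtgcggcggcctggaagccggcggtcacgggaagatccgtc
Clk4: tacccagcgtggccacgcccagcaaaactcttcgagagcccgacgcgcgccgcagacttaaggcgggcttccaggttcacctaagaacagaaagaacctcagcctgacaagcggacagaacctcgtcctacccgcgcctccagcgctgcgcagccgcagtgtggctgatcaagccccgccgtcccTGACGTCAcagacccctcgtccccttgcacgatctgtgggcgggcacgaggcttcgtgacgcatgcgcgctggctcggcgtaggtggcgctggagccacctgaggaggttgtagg
That element, a palindrome searched on both strands, was in 3 of the 24 called genes with a promoter entry (Ccnl1, Clk4 and Gpbp1), where 1.79% of all promoters held it. A gene counted if any of its promoter entries held the element, whereas the 1.79% is per promoter entry. The element too was chosen after matches had been seen.

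Pdlim1 and Ccdc117 had the smallest adjusted p values among the rises. Pdlim1 encodes a PDZ and LIM domain adaptor of the actin cytoskeleton. It stood at 231 CPM in LNnT1, 217 in LNnT3, 209 in LNnT5 and 188 in LNnT4, with LNnT2 between these last, against 141, 112, 117, 119 and 124 CPM in Weaned1 to Weaned5. Neither LNnT1 nor LNnT3 was far from the rest, and the groups were well apart. It had the smallest adjusted p of all genes (1.70-fold; log2 change 0.77 ± 0.10; edgeR adjusted p = 0.00103). Ccdc117 had 34.5 ± 5.92 CPM in EW+LNnT and 18.0 ± 2.26 CPM in EW (SD, n = 5 each), with 29.4 to 44.5 CPM in EW+LNnT and 15.9 to 21.7 CPM in EW (0.94 ± 0.13; edgeR adjusted p = 0.0018). Nfil3, Ccdc117, Pdlim1, Fdft1 and Acta1 were the 5 genes called whichever of the 10 libraries was left out. In a fit of these 10 libraries alone, Fdft1 was called and the other 4 were not. Without the 5 libraries with pancreatic transcripts above 0.1% of counts, Pdlim1 and Ccdc117 were called and Fdft1, Nfil3 and Acta1 were not. All 5 kept their sign in both fits, which reuse values behind the calls.

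Slc30a1, Trib1, Ripk4 and Flrt3 were uneven across the EW+LNnT libraries. Slc30a1 encodes the zinc exporter ZnT1 of the basolateral membrane. It stood at 120.4, 109, 380.4, 93.4 and 71.0 CPM in LNnT1 to LNnT5, against 39.6 to 64.6 CPM in EW (log2 change 1.53 ± 0.32; edgeR adjusted p = 0.0414). LNnT3 was far above the rest, and without it the estimate was 0.87 and was not called. Among 13 genes of zinc transport and storage no other was called, and the median was -0.03.

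Trib1 encodes a pseudokinase that directs proteins to degradation. It stood at 151, 54.9, 184, 36.6 and 45.1 CPM in LNnT1 to LNnT5, against 21.0 to 32.4 CPM in EW (1.77 ± 0.32; edgeR adjusted p = 0.0165), and its estimate was 0.56 without LNnT1, LNnT2 and LNnT3. Ripk4, a kinase of epithelial differentiation, had 126, 105, 82.7, 42.3 and 52.2 CPM in LNnT1 to LNnT5 and 31.2 to 44.3 CPM in EW (1.16 ± 0.21; 0.0165). Flrt3, an adhesion and FGF-signalling membrane protein, had 99.9 CPM in LNnT3 and 15.7 to 40.1 CPM in the other EW+LNnT libraries, against 7.41 to 17.8 CPM in EW (1.71 ± 0.36; 0.0447). Its EW range overlapped with LNnT2. Other rises were Zbtb2 and Tgif1, transcriptional repressors (1.38 ± 0.26 and 0.96 ± 0.19), Hapstr1, a stress-response regulator (1.00 ± 0.20), and Fbxo33, a ubiquitin ligase subunit (1.12 ± 0.19). The smaller ones included Rab40c, Rab3ip and Spire2, which act in ubiquitination, vesicle transport and actin assembly (0.73 ± 0.14, 0.56 ± 0.10 and 0.62 ± 0.13).

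No gene of the heat-shock, immediate early, glucocorticoid-induced or integrated stress lists was called. The heat-shock list (14 genes) had a median change of 1.29, which was 0.18 without LNnT3. Without LNnT1, LNnT2 and FL1, where LNnT3 is 1 of 3 EW+LNnT libraries, the median was 1.76 and 8 members were called. That fit called 1.43% of all genes. Hspa1a, an inducible HSP70, stood at 4710.3 CPM in LNnT3, 2.08 to 8.82 CPM in the other EW+LNnT libraries and 2.66 to 4.59 CPM in EW. Its copy Hspa1b is nearly identical, and how reads shared by them were assigned is not known from the sources used here. The immediate early list (19 genes) had a median of 0.73, and of 0.11 without LNnT3, whose Atf3 stood at 1295 CPM against 5.47 to 10.8 CPM in EW. The glucocorticoid-induced list (14 genes) had a median of 0.89, and of 0.30 without LNnT1, LNnT2 and FL1. It summed to 6095 CPM in LNnT1, 5339 CPM in LNnT2 and 5582 CPM in FL1, against 1495 to 2648 CPM in EW. The stress genes of LNnT3 therefore stand beside the genes for which LNnT3 was the highest library, and their part in those changes was not tested.

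**Figure D3:**
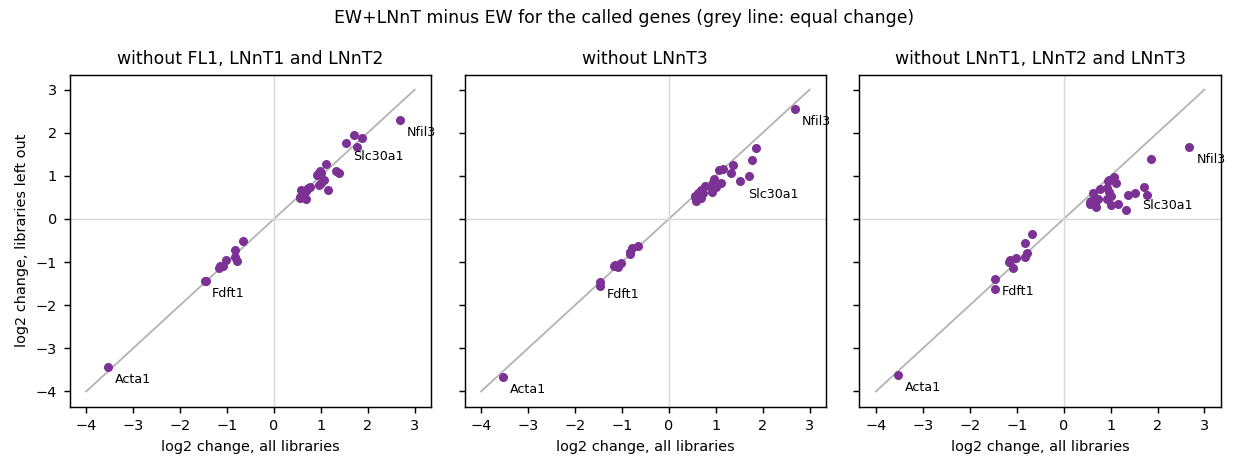
Log2 change of 37 called genes with all libraries (horizontal axis) against the change with the named libraries left out (vertical axis). All 37 keep their sign in each panel, which leaving out libraries could hardly change. The falls stay near the line of equal change, and the rises drop below it when LNnT1, LNnT2 and LNnT3 are all left out.

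With LNnT1, LNnT2 and LNnT3 all left out, 38 of 38 genes had the same sign as before, and none of the 38 was called. The fit then had 2 EW+LNnT libraries and called 2 other genes. The 38 had been called with LNnT4 and LNnT5 included, and most did not overlap between the groups. Their sign could therefore hardly change when libraries were left out. The estimates of the sterol genes were nearly as large as before, at -1.39 for Fdft1, -1.15 for Insig1 and -1.0 for Mvd. Among the rises they were 0.88 for Ccdc117 and 0.69 for Pdlim1, close to the full estimates, and 0.20 for Tsc22d2 and 0.36 for Ripk4, well under them. The median size of change over the 38 genes was 0.65 there and 1.01 with all libraries.

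The other falls were single genes. Lgr5, the receptor that marks crypt stem cells, stood at 7.23, 5.74, 6.05, 8.63 and 9.25 CPM in LNnT1 to LNnT5, against 10.1, 17.0, 10.4, 15.1 and 12.6 CPM in Weaned1 to Weaned5. The groups did not overlap, but LNnT5 and Weaned1 were close (-0.82 ± 0.17; edgeR adjusted p = 0.0414). It was the only one of 17 crypt stem cell and Wnt genes called (median -0.22), and none of 20 proliferation genes was (median -0.17). Cdx2, an intestinal identity factor of the stem list, had 53.1 and 65.0 CPM in LNnT1 and LNnT2, 125 to 146 CPM in the other 3 and 153 to 167 CPM in EW, and did not pass (-0.58 ± 0.22; edgeR adjusted p = 0.29).

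Cd248, the pericyte and fibroblast glycoprotein endosialin, had 1.51 to 2.14 CPM in EW+LNnT and 3.64 to 5.36 CPM in EW (-1.46 ± 0.28; edgeR adjusted p = 0.0294). Beside it, all 10 genes of the fibroblast list had negative changes (median -0.43), as had all 9 of the smooth muscle list (-0.63) and 12 of 13 of the enteric neural and glial list (-0.66), with none called. The sums over these lists were 825 to 1342 CPM in EW+LNnT and 913 to 1819 CPM in EW for fibroblasts, and 494 to 1047 CPM in EW+LNnT and 725 to 1453 CPM in EW for smooth muscle. Their part in the change of Cd248 was not tested.

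Acta1, the actin of skeletal muscle, stood at 0.60, 0.74, 1.03, 0.46 and 1.00 CPM in LNnT1 to LNnT5, against 2.07, 4.31, 29.9, 5.48 and 2.76 CPM in Weaned1 to Weaned5. Weaned3 alone raised the EW mean, but every EW library was above every EW+LNnT library. The log2 change was -3.53 ± 0.59 (edgeR adjusted p = 0.0134), and without Weaned3 it was -2.25 and still called (0.0308). The skeletal muscle list had 6 of 10 members tested, of which Acta1 fell and the others were not called (median -0.83). Its summed level was 3.69 to 7.73 CPM in EW+LNnT and 10.2 to 36.4 CPM in EW. Maged2, Zfp810 and Rasa3, the last a GTPase-activating protein of the RAS and RAP pathways, fell by 0.83 ± 0.17, 0.79 ± 0.16 and 0.67 ± 0.13 on the log2 scale. Maged2 lies on the X chromosome, and the groups differ in how many libraries hold Y-linked transcripts.

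No gene of the barrier and inflammation panel was called. Of the 14 genes in the list of adherens junctions and desmosomes Ripk4, described above, was called higher and none lower (median 0.16). Ocln, the tight-junction protein occludin, stood at 210, 145, 133, 128 and 129 CPM in LNnT1 to LNnT5, against 104, 115, 102, 88.3 and 81.4 CPM in Weaned1 to Weaned5. The groups did not overlap and LNnT1 was the highest, and the change of 0.61 did not pass (95% interval 0.21 to 1.01; edgeR adjusted p = 0.19). Cldn3 (claudin-3) had a change of 0.45 (0.13 to 0.77; adjusted p = 0.21) and Tjp1 (the scaffold ZO-1) one of 0.51 (0.09 to 0.93; 0.31). The tight junction list of 22 genes had a median of 0.19 and none called. Among other genes of barrier and digestion, the interval was -0.77 to 0.97 for the mucin Muc2, -1.41 to 1.07 for the antimicrobial lectin Reg3g, -0.65 to 0.80 for lactase (Lct) and -0.48 to 0.73 for sucrase-isomaltase (Sis). The inflammatory cytokines Tnf and Il1b had intervals of -0.60 to 3.50 and -1.13 to 2.28, and Il6 was too low to test. These are intervals of the log2 change, and those that include 0 do not show that the groups were alike.

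**Figure D4:**
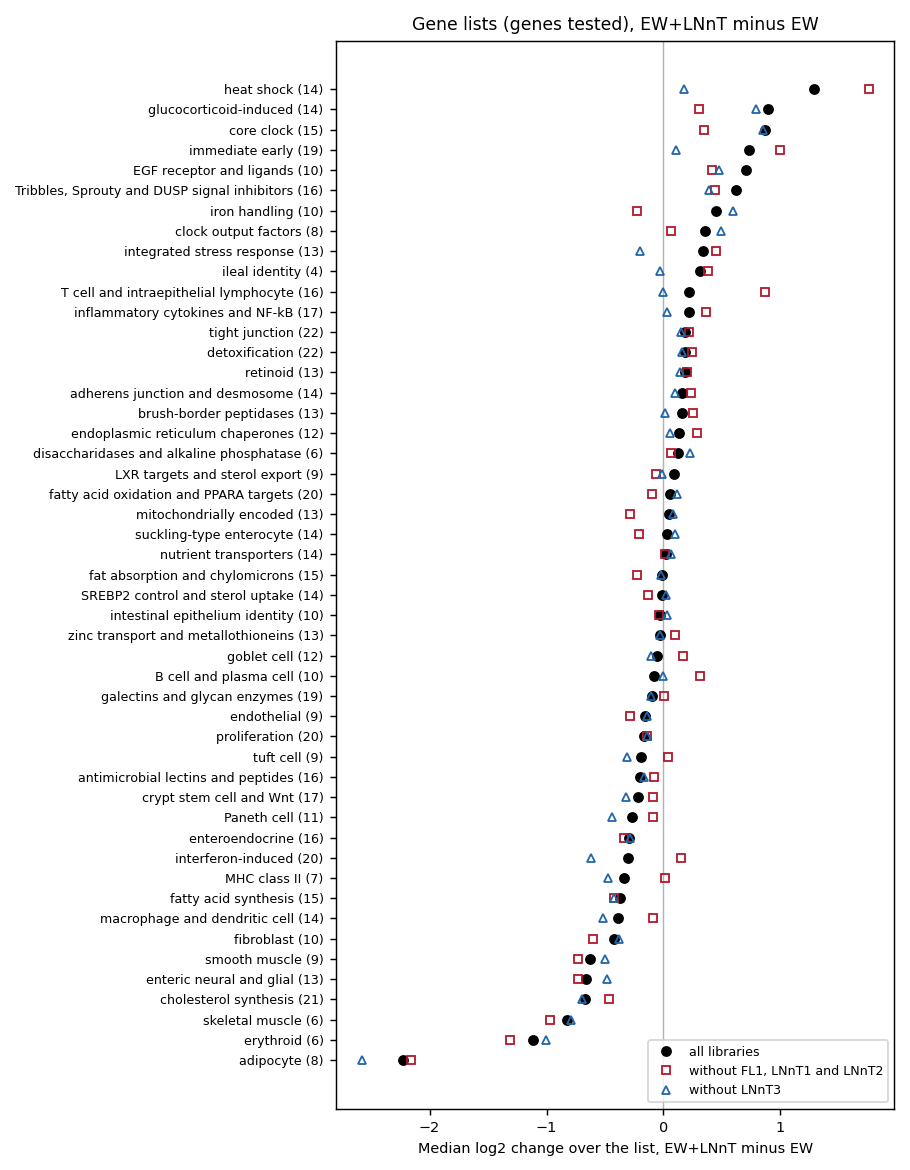
Median log2 change, EW+LNnT minus EW, of each gene list (number of genes tested in brackets) with all libraries (black), without FL1, LNnT1 and LNnT2 (red squares) and without LNnT3 (blue triangles). Cholesterol synthesis genes stay at -0.70 to -0.46, core clock genes drop to 0.35 without FL1, LNnT1 and LNnT2, and heat-shock genes drop to 0.18 without LNnT3.

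Immune lists held no called gene. The T cell list (16 genes) had a median of 0.22, the MHC class II list (7) of -0.34, the macrophage and dendritic cell list (14) of -0.39 and the interferon-induced list (20) of -0.30. In LNnT1 and LNnT2 these genes were low: Ciita, the master activator of MHC class II, stood at 0.32 and 0.66 CPM there, 5.32 to 12.7 CPM in LNnT3 to LNnT5 and 1.94 to 11.3 CPM in EW. MHC class II genes were low in FL1 too, where they summed to 219 CPM. Their sums were 291 CPM in LNnT1, 251 CPM in LNnT2 and 298 to 627 CPM in EW. Without LNnT1, LNnT2 and FL1 the medians were 0.87 for T cell, 0.01 for MHC class II, -0.09 for macrophage and dendritic cell and 0.15 for interferon-induced genes. Haemoglobin and other erythroid genes (6) had a median of -1.11, with Weaned1 the highest library for Hbb-bs, and none was called.

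The same oligosaccharide was also added to 2'-fucosyllactose, and EW+HMOs against EW+2'-FL measures that step in libraries shared with neither EW+LNnT nor EW, although all enter one fit. Across all genes it called 0 (0%) in edgeR, with 2369 at an unadjusted p under 0.05 and a smallest adjusted p of 0.13. By DESeq2 147 genes were called. The called genes of EW+LNnT against EW tended the other way there. Of the 26 that rose, 24 had a negative estimate with a median of -0.29, where 56.8% of all genes were negative, and of the 12 that fell, 10 had a positive one with a median of 0.57. Without FL1 these counts were again 24 and 10, with 54.1% of all genes negative. The EW+2'-FL libraries also differed in heat-shock genes. These summed to 1917, 4125, 2576, 2684 and 1953 CPM in FL1 to FL5, against 1742 to 1913 CPM in EW+HMOs. Their part in the opposite signs was not tested.

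Fdft1 was one of these. It averaged 39.0 ± 12.6 CPM in EW+HMOs and 16.4 ± 5.07 CPM in EW+2'-FL (SD, n = 5 each), beside 11.9 ± 1.73 CPM in EW+LNnT and 33.1 ± 4.95 CPM in EW, and 14.7 ± 2.04 CPM in control. The change was 1.25 ± 0.22 for EW+HMOs minus EW+2'-FL (edgeR adjusted p = 0.13) and -1.47 for EW+LNnT minus EW. The difference between these effects was 2.72 ± 0.31 (edgeR adjusted p = 0.000101). So Fdft1 was high in EW+HMOs and EW, and low in EW+LNnT, EW+2'-FL and control.

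Nfil3 ran the opposite way, with 5.08 ± 0.33 CPM in EW+HMOs and 13.4 ± 10.6 CPM in EW+2'-FL (SD, n = 5 each), beside 42.4 ± 28.1 CPM in EW+LNnT and 6.62 ± 1.44 CPM in EW. The difference between its effects was -4.08 ± 0.57 (edgeR adjusted p = 0.00144). Per2 averaged 79.2 CPM in EW+HMOs and 79.4 CPM in EW+2'-FL, and its difference of -0.98 ± 0.26 did not pass (edgeR adjusted p = 0.0716).

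Over all genes the difference between the effects was called for 187 (0.845%), 57 higher (0.258%) and 130 lower (0.587%). Among them were 32 of the 38 genes, a count that the choice of genes called in one of the effects favours. In the cholesterol list the difference was called higher for 12 of 21 genes, with a median of 1.39. The list's median was 0.73 for EW+HMOs minus EW+2'-FL and -0.67 for EW+LNnT minus EW.

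**Figure D5:**
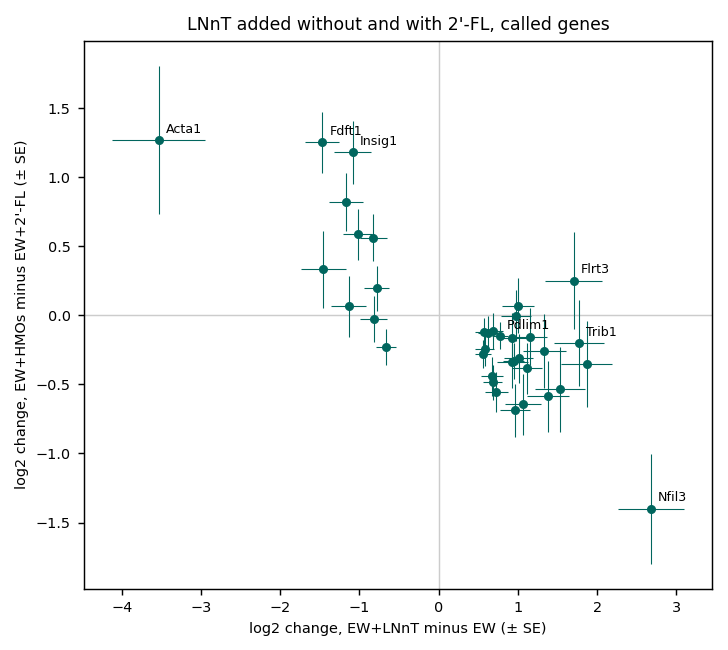
Log2 change of 37 called genes for EW+LNnT minus EW (horizontal axis) and for EW+HMOs minus EW+2'-FL (vertical axis), which share no library, with standard errors as bars. Most rises lie below 0 and most falls above 0 on the vertical axis, and none of the vertical values passed the test.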

How the data were processed

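Jejunal mRNA was sequenced in 25 libraries; library preparation was strand-specific poly(A) RNA sequencing, per the labels' protocols. The submitters' processing notes name cutadapt 1.9, HISAT2 2.2.1, StringTie 2.1.6, DESeq2, edgeR and the GRCm39 genome, with no role or order. Which annotation and counting program were used, and how reads shared by paralogs were handled, is not given in the sources used here. Counts (unnormalised whole numbers for each gene in each library) were taken from the authors' count matrix. FPKM, which the authors deposited in another table along with gene symbols and the same counts, served only for 1 repeat of the test.

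Counts were scaled by TMM in edgeR 4.0.16 (R 4.3.3). Genes passing filterByExpr by group (22131 of 57132, holding 99.98% of counts) were fitted together for all 25 libraries by robust quasi-likelihood, with 1 mean per group and no covariate, so all groups share the estimate of the spread. The contrasts were EW+LNnT minus EW, EW+HMOs minus EW+2'-FL, and the difference of these effects. P-values were adjusted by Benjamini and Hochberg over all genes tested, and a gene was called at an adjusted p under 0.05. Levels are TMM-scaled CPM, and errors of log2 changes are standard errors.

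The members and the 51 gene lists (662 genes) were chosen with earlier results of these data known. The genes named were every called gene with a symbol that is not a predicted name, up to 4 members with the smallest p of each list with a called member or a median over 0.3 from that of all genes, all cholesterol synthesis and core clock genes, and a panel of barrier and inflammation genes. Part of these are not reported here. In simulated data for EW+LNnT minus EW (22131 genes), recovery was 5.97% at 1.5-fold, 43.3% at 2-fold and 89.4% at 4-fold, and 2 of its 94 calls were unchanged genes (2.13%). Library totals set the counting precision, and changes of 2-fold or less were mostly out of reach in the simulation. Alternatives were RLE scaling, other filters, DESeq2 1.42.0, limma 3.58.1 (voom, and log2 of FPKM + 1), a Y-linked covariate, a replicate block and fits without libraries. Library replicate numbers were not used as pairs in the results. Promoters and their coordinates come from RefSeq on GRCm38.p6, and no other coordinates are given because the annotation used here has another build than the counts.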

Additional observations from a re-analysis of the deposited data

Results flagged for a closer look

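In 8 of 94 groups of 5 libraries, which cover the called genes and the barrier panel, 1 library lay far from the other 4 on the log2 scale. Chance alone flags about 1 group in 20. LNnT3 was far above the other EW+LNnT libraries in Fbxo33 (49.9 CPM), Cpeb2 (121 CPM) and Rc3h1 (102 CPM), and LNnT1 in Ocln (210 CPM). Among EW libraries Weaned1 was far below the others in Zbtb2 (9.93 CPM) and Tjp1 (61.1 CPM) and far above them in Rab40c (27.6 CPM), and Weaned5 was far above them in Per2 (80.1 CPM). LNnT3 is the library with high heat-shock genes, and LNnT1 and Weaned1 hold pancreatic transcripts; the part of either in these values was not tested.

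In the fit of all 25 libraries, EW+HMOs minus EW+2'-FL differed from EW+LNnT minus EW for 32 of the 38 called genes. The former adds LNnT to 2'-fucosyllactose and the latter adds it to no supplement. The test was edgeR's test of the difference with Benjamini-Hochberg adjustment. Over all genes it called 187 in that fit, 38 in the compared groups alone and 100 with the Y-linked covariate. How many of the 32 were called in those other fits is not given here. Values are log2 differences, the effect with 2'-fucosyllactose minus the effect without. Positive ones, in genes that fell in EW+LNnT, were 4.80 for Acta1, 2.72 for Fdft1, 2.27 for Insig1, 1.98 for Mvd, 1.79 for Cd248, 1.61 for 9330133O14Rik, 1.39 for Maged2 and 0.98 for Zfp810. The negative ones, in 23 genes that rose, were -4.08 for Nfil3, -2.22 for Gm28373, -2.06 for Slc30a1, -1.97 for Trib1, -1.96 for Zbtb2, -1.71 for Khnyn, -1.65 for Tgif1, -1.59 for Tsc22d2, -1.50 for Fbxo33, -1.32 for Sirt1, -1.31 for Ripk4 and -1.28 for Ccdc117, and further -1.28 for Rab40c, -1.27 for Cpeb2, -1.16 for Clk4, -1.12 for Sfpq, -1.09 for Ccnl1, -0.92 for Pdlim1, -0.83 for Ccnl2, -0.83 for Rc3h1, -0.80 for Gpbp1, -0.75 for Spire2 and -0.69 for Rab3ip. Because these genes were chosen for the effect without 2'-fucosyllactose, the count of 32 is not independent of that choice.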

How the results depend on the processing

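All 38 genes called in EW+LNnT minus EW had the same sign under every alternative run, and the number called ran widely. The alternatives reuse the values behind the calls, so the kept sign is no separate support for them. Against 38 genes, edgeR called 15 with no filter on low counts, 70 with at least 1 CPM in at least 5 libraries, 1 in a fit of the compared groups alone, 5 with Y-linked share added as a covariate, 94 without LNnT1 and LNnT2, 317 without FL1, LNnT1 and LNnT2 (35 of the 38), 10 without LNnT3 (8 of the 38) and 3 without the 5 libraries with pancreatic transcripts above 0.1% of counts. DESeq2 called 406, voom with quality weights 156 and limma on log2(FPKM + 1) 20. Fits chosen after seeing the data called 2 without LNnT1, LNnT2 and LNnT3, 33 without Weaned1, LNnT1 and LNnT2, and 0 (none at all) with only the libraries that hold Y-linked transcripts. That last fit kept 2 EW+LNnT libraries. Leaving out 1 library gave 5 (without Weaned4) to 218 (without FL1) genes. Moves over 1.5-fold came without any of Weaned1 (21), Weaned2 (9), Weaned3 (7), Weaned4 (5), Weaned5 (18), LNnT1 (12), LNnT3 (10), LNnT4 (164), LNnT5 (116), FL1 (218), FL2 (120), and 7 libraries of control and EW+HMOs (22 to 25). The cause was not tested.

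EW+HMOs minus EW+2'-FL, with 0 genes in edgeR, had 147 in DESeq2, 1 in voom, 18 without FL1, LNnT1 and LNnT2, 52 when libraries with pancreatic transcripts were dropped, and 0 to 15 with 1 library left out (15 without FL5). The difference between the effects, with 187 genes, had 84 with no filter, 294 with the 1 CPM filter, 751 in DESeq2, 512 in voom, 38 in the compared groups alone, 100 with the Y-linked covariate, 794 without FL1, LNnT1 and LNnT2, 300 when libraries with pancreatic transcripts were dropped, and 55 (without Weaned4) to 340 (without FL2) with 1 library left out.

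Replicate numbers 1 to 5 are shared by the groups. Deviations of same-numbered EW+LNnT and EW libraries correlated at 0.38, -0.04, 0.21, 0.03 and 0.21. Numbers 1, 3 and 5 matched best with themselves, and numbers 2 and 4 did not. Between EW+HMOs and EW+2'-FL the correlations were -0.10 to 0.06, and only number 1 matched best with itself. Whether a number marks a shared litter or batch is not labelled and cannot be told from these values. A fit with the replicate block called 20 genes for EW+LNnT minus EW (19 of the 38), 0 for EW+HMOs minus EW+2'-FL and 159 for the difference.

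With 5 libraries a group, changes of 2-fold or less were mostly not recovered in the simulation, and absence of a call is not absence of change. Sex, library features and LNnT cannot be separated in LNnT1 to LNnT3.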
